A study of Mus musculus with 12 samples.

Results

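The genes described here are 45 genes of the cell cycle and of DNA replication, taken by their symbols from the 55335 genes listed in the expression files. Symbols were joined to gene identifiers through GENCODE. The members were grouped by main role into 23 S phase genes, 21 mitosis genes and 1 G1 gene, Ccnd1. This split is a chosen grouping, since the S phase set also holds genes of origin licensing, which takes place in G1. All 45 were among the 14357 genes that had enough counts to be tested.

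Expression was measured by bulk RNA-seq in bone marrow-derived dendritic cells (BMDCs), which were grown from mouse bone marrow with GM-CSF for 6 days, with the medium changed every 2 days, and selected from the floating cells with beads against CD11c. The 4 groups had 3 libraries each. WT received neither LPS nor JSH-23, and WTL received 100 ng/ml LPS for 3 h. WT + JSH23 received 100 µM JSH-23, and WTL + JSH23 received 100 µM JSH-23 for 3 h before the same dose of LPS. The treatment text gives 3 h of JSH-23, but how long it was present in total in either group is not clear. The groups with JSH-23 may therefore differ in time with JSH-23 as well as in LPS. LPS is a component of the bacterial outer membrane that activates dendritic cells, and JSH-23 is a small molecule that keeps RelA, a subunit of NF-κB, out of the nucleus. The mice of all 4 groups were C57BL/6, 8 to 12 weeks old, of both sexes, and carried the Rosa26-CreER transgene with intact Ctcf alleles. The study added 4-hydroxytamoxifen on the first day of culture for Ctcf deletion, and its text can be read as not adding it to WT cultures. Whether the groups without JSH-23 received its solvent and whether bone marrow was pooled over animals are not given in the sources used here.

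A dividing cell licenses its replication origins in G1 by loading the MCM helicase, copies its DNA in S phase and separates the copies in mitosis. Cyclin D and cyclin E kinases release E2F transcription factors, which switch on genes of nucleotide supply and of the replication fork, whereas genes of the mitotic machinery are switched on later by complexes that bind CHR elements and CCAAT boxes. Cells that leave the cycle shut off both programs. GM-CSF cultures hold dividing precursors that give rise to non-dividing dendritic cells, and LPS is known to promote their terminal maturation.

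Promoters of the members are shown first because their letters differ between the S phase and mitosis sets. RefSeq promoter windows of 300 bases, 250 before and 50 after each start site, were given for 37 of 45 members on build GRCm38.p6, and Ccnd1, Ccne2, Mcm4, Gins2, Ccna2, Aurkb, Kif20a and Tpx2 had no entry. The CHR letters TTTGAA, on either strand, were in 12 of 17 mitosis promoters (70.6%), in 3 of 20 S phase promoters (15%) and in 20.2% of the promoters of 27025 genes. The E2F letters TTTCCCGC, TTTCGCGC, TTTGCCGC or TTTGGCGC, on either strand, were in 1 of 17 mitosis promoters (5.88%), in 8 of 20 S phase promoters (40.0%) and in 2.6% of all genes. CCAAT on either strand was in 15 of 17 (88.2%), 13 of 20 (65.0%) and 41.1%. Per window of the same length, of which 32851 were listed, the shares were 17.9%, 2.26% and 37.4% for CHR, E2F and CCAAT. A match of letters is a description of the window and not a bound site.

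The 200 bases upstream of the start site are printed for 3 mitosis and 3 S phase members, 5′ to 3′ on the strand of the gene, with CHR, CCAAT and E2F matches of either strand in capitals. Mki67, Top2a and Cdk1 each hold CHR and CCAAT matches, and Cdk1 holds the single E2F match of the mitosis set. Of the S phase members, Mcm5 and E2f7 hold E2F matches. E2f8 holds a CHR and a CCAAT match but no E2F match, and is 1 of only 3 S phase members with CHR letters. In Mcm5 the capitals of 2 E2F matches, one on each strand, overlap. The windows are chr7:135716380-135716579 for Mki67 (minus strand), chr11:99024190-99024389 for Top2a (minus strand), chr10:69352913-69353112 for Cdk1 (minus strand), chr7:48881597-48881796 for E2f8 (minus strand), chr8:75109309-75109508 for Mcm5 (plus strand) and chr10:110745239-110745438 for E2f7 (plus strand).
Mki67: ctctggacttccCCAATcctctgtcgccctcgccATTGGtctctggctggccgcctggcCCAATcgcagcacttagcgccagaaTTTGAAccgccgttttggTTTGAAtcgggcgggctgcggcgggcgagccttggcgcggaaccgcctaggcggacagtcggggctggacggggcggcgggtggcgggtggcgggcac
Top2a: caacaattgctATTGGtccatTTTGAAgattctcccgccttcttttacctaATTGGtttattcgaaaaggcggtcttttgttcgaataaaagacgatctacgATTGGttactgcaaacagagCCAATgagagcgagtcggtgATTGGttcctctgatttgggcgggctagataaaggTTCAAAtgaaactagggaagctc
Cdk1: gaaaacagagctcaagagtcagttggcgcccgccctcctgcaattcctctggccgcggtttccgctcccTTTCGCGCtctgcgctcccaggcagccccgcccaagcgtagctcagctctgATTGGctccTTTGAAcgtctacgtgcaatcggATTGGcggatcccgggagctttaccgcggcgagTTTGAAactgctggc
E2f8: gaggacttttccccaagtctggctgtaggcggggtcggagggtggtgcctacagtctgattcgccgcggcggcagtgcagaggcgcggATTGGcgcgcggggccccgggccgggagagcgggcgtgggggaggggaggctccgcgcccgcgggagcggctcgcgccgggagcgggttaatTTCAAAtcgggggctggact
Mcm5: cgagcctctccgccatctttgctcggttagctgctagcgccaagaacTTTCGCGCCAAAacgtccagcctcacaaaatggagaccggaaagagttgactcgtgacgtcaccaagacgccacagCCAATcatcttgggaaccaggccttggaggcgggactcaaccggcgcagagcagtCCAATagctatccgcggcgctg
E2f7: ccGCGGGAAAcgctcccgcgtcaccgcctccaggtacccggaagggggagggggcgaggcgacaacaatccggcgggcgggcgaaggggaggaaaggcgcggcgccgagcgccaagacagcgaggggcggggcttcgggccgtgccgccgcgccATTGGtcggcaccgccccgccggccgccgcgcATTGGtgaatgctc

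**Figure D1:**
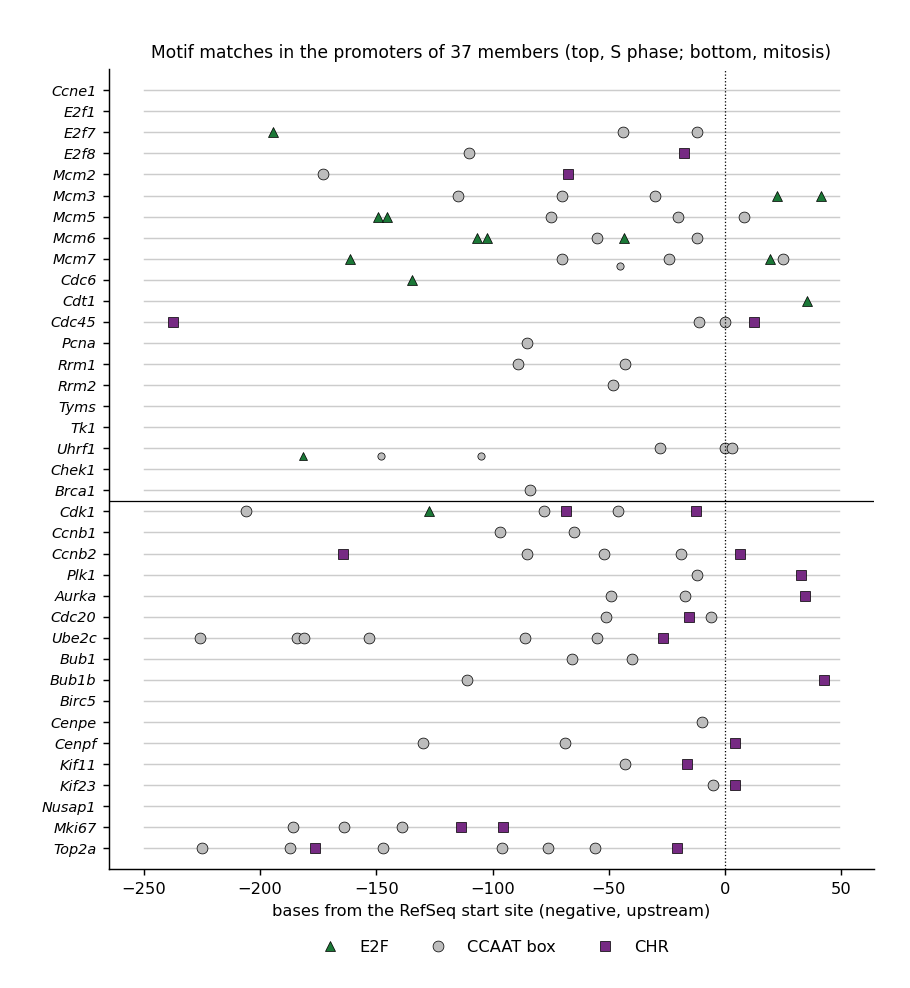
Positions of CHR (squares), CCAAT (circles) and E2F (triangles) letter matches within 37 member promoters, in bases from the RefSeq start site, with S phase members above the line and mitosis members below; small marks belong to a second start site. CHR matches are in 12 of 17 mitosis promoters and E2F matches in 8 of 20 S phase promoters.

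Total expected counts per library ran from 24664724 to 34837847, and no batch is given in the labels. WTL + JSH23 replicate 3 stood apart from the other 2 libraries of its group, with a chi-square per gene of 8.06 and 8.91 against 2.33 to 4.48 for all other pairs within groups. Dendritic cell markers summed to 17498 to 19855 TPM over the libraries. Most of their counts came from Cd74, H2-Ab1 and Ccr7, while Flt3 and Batf3 had few counts and Cd209a was near 0. Of the lists for other cell types, 0 of 5 lymphocyte and 1 of 4 mast cell and basophil markers had enough counts to be tested. Values marked CPM are read counts relative to the scaled size of the library, given in the order of replicates 4 to 6 without and 1 to 3 with JSH-23. Values after ± are standard errors (SE) of log2 fold changes, and a gene passed the test at an adjusted p under 0.05 over all genes tested. All 12 libraries entered 1 fit and share its estimate of the spread. Because the cells were measured in bulk, fewer cells in cycle and less RNA per cell cannot be told apart.

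In WT, levels per transcript length ran from 162 TPM for Pcna to 0.597 TPM for E2f7. Pcna, the sliding clamp of the replication fork, ranked first of the 45 members in all 4 groups. Mki67, the proliferation marker Ki-67, which coats mitotic chromosomes, ranked 10 in WT at 14.3 ± 0.186 TPM (SD, n = 3) and 2 in WTL at 76.9 ± 3.73 TPM. The effective length behind TPM differed more than 2-fold between libraries for 6 members (Ccne2, E2f7, Mcm2, Chek1, Cenpf and Kif23), so their TPM values were unstable, and the members are compared on counts. For Mki67 it lay between 9245 and 9814 bases.

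To examine how 3 h of LPS affected these genes, WTL was compared with WT. Of 45 members, 34 fell and 6 rose, while 5 did not pass (Mcm3, Cdc6, Ccnb2, Ube2c and Tpx2). The background was 34.7% of all tested genes lower and 31.0% higher, and the median log2 fold change was -0.68 for the members and -0.05 for all genes. With a change of more than 2-fold required, 17 members were lower and 2 higher, against 9.09% and 7.36% of all genes. Of the S phase members 17 fell and 4 rose (Ccne1, E2f8, Tyms and Brca1), with a median of -0.56. Of the mitosis members 17 fell and 1, Mki67, rose, with a median of -1.06, or -1.27 without Mki67.

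The same question in cells given JSH-23 was answered by WTL + JSH23 against WT + JSH23, which shares no library with the first comparison. Here 33 members fell, 8 rose and 4 did not pass, against 27.1% of all genes lower and 27.4% higher, with a median of -0.73 for the members and -0.02 for all genes. More than 2-fold, 12 members were lower and 3 higher (4.49% and 5.85% of all genes). S phase members had 16 falls and 5 rises with a median of -0.49. Mitosis members had 17 falls and 2 rises, of Mki67 and Tpx2, with a median of -0.84. Without WTL + JSH23 replicate 3 the counts were 30 falls and 6 rises.

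**Figure D2:**
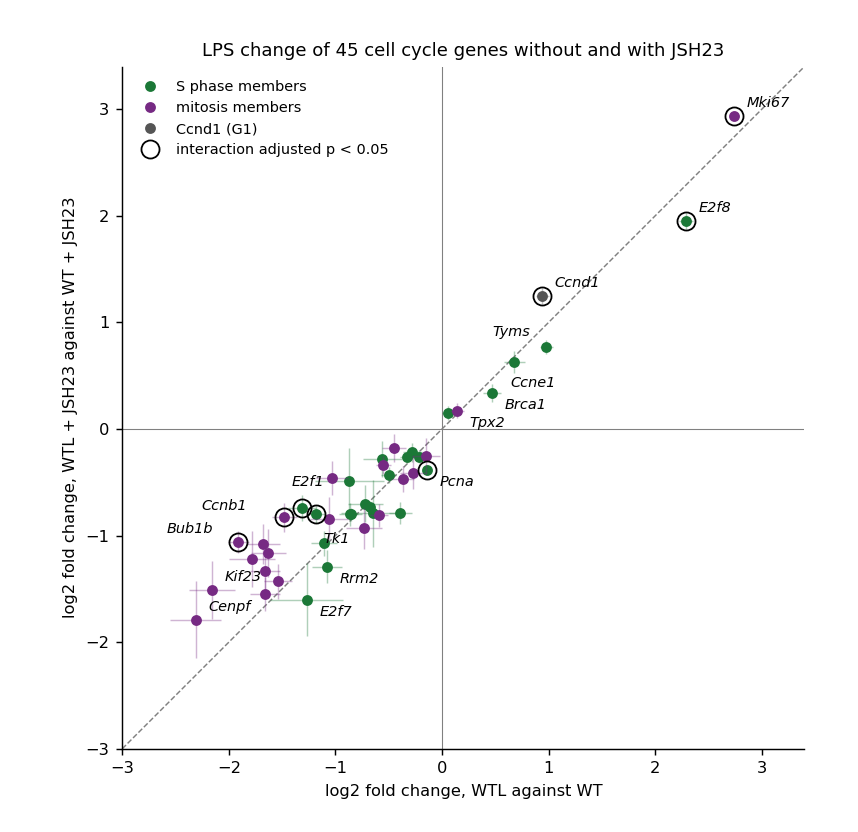
Log2 fold change with LPS without JSH-23 (horizontal axis) and with JSH-23 (vertical axis) for 45 members, with SE bars, coloured by set; ringed genes passed the test of the difference and the dashed line marks equal changes. Mki67 (2.74 and 2.94) and E2f8 (2.29 and 1.95) lie far above the other members.

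To examine JSH-23 in cells without LPS, WT + JSH23 was compared with WT. In this comparison 25 members fell, 4 rose and 16 did not pass, against 22.1% of all genes lower and 18.8% higher, with medians of -0.46 for the members and -0.01 for all genes. All 21 mitosis members fell, and their median was -0.93, with a range from -2.09 to -0.46. Of the 23 S phase members, 3 fell (E2f8, Rrm1 and Mcm3), 4 rose (Cdt1, Mcm2, Gins2 and Pcna) and 16 did not pass, with a median of -0.03, which was 0.031 when log2(TPM + 1) was tested with limma instead. More than 2-fold, 11 members were lower and 0 higher, against 2.94% and 2.43% of all genes. Libraries with and without JSH-23 carry different replicate numbers, so a difference between sets of cultures cannot be told apart from JSH-23.

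Under LPS, WTL + JSH23 was compared with WTL. The members showed 21 falls, 4 rises and 20 that did not pass, against 24.2% of all genes lower and 24.5% higher, with medians of -0.36 for the members and 0.02 for all genes. More than 2-fold, 9 were lower and 0 higher (3.25% and 3.75% of all genes). Mitosis members made up 15 of the falls, with a median of -0.66 and no rise. S phase members had 5 falls and 4 rises with a median of -0.06, or 0.059 with limma on TPM. Without WTL + JSH23 replicate 3 the members had 20 falls and 3 rises. Here too, a difference between sets of cultures cannot be told apart from JSH-23.

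Averaged over each set, the difference between S phase and mitosis genes could be seen library by library. The mean log2 CPM of the mitosis members, relative to the WT mean, lay between -1 and -0.88 in the WTL libraries, between -1.04 and -0.92 in WT + JSH23 and between -1.82 and -1.56 in WTL + JSH23. That of the S phase members lay between -0.38 and -0.35 in WTL, between -0.04 and 0.02 in WT + JSH23 and between -0.41 and -0.36 in WTL + JSH23. The mitosis means of WTL and WT + JSH23 overlapped, whereas the S phase means of these groups did not. The overlap depended on Mki67. With Mki67 left out, the mitosis means lay between -1.19 and -1.06 in WTL and between -1.05 and -0.93 in WT + JSH23, and did not overlap. The lowest mitosis mean belonged to WTL + JSH23 replicate 3. These means describe chosen members and carry no test.

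**Figure D3:**
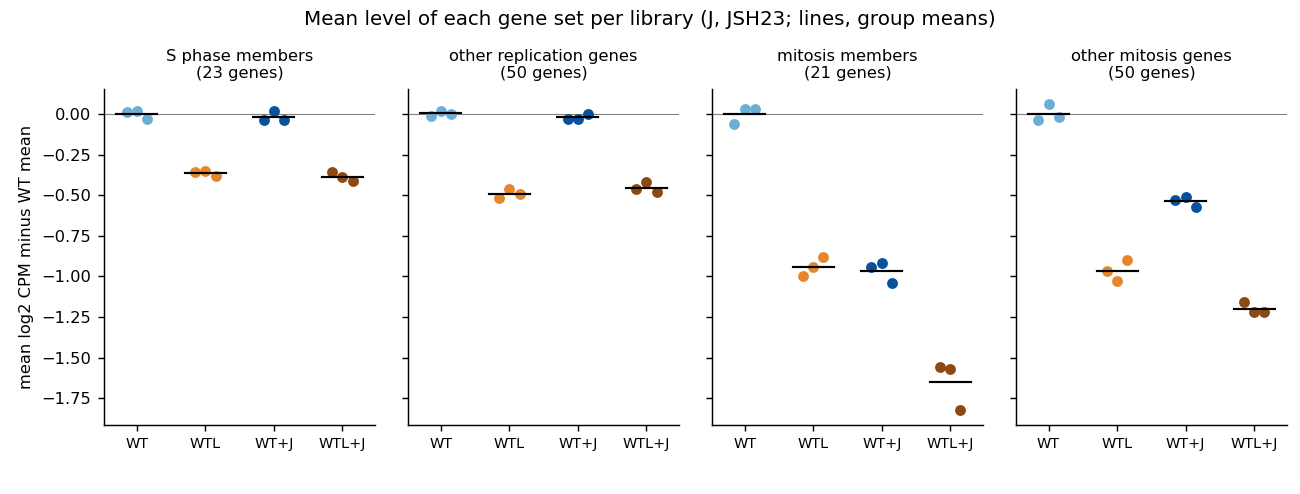
Mean log2 CPM of S phase members, other replication genes, mitosis members and other mitosis genes in each of 12 libraries, relative to the mean of WT; points are libraries and lines group means. The mitosis members in WT + JSH23 sit between -1.04 and -0.92, whereas S phase members sit between -0.04 and 0.02.

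Markers of other cell types were read beside the mitosis genes. Of all genes tested, 34.7% fell and 31.0% rose with LPS, and 27.1% fell and 27.4% rose with LPS under JSH-23. With JSH-23, 22.1% fell and 18.8% rose without LPS, and 24.2% fell and 24.5% rose under LPS. The 9 myeloid progenitor markers summed to 10.5 to 11.5 TPM in WT, 7.55 to 8.74 in WTL, 6.48 to 7.52 in WT + JSH23 and 6.2 to 6.41 in WTL + JSH23. Of these markers 6 were tested, 1 fell with LPS in either LPS comparison and 1 rose with LPS under JSH-23. With JSH-23, 3 fell both without and with LPS, while Elane, Ctsg and Ms4a3 were near 0 in every group. On counts, 5 of the 6 had a log2 fold change above 0 in WTL against WT and 1 below (median 0.05). On log2(TPM + 1) the median of all genes was itself -0.30 in this comparison, so sums of TPM and tests on counts differ in scale. The 6 macrophage markers summed to 885 to 924 TPM in WT, 524 to 585 in WTL, 609.8 to 659 in WT + JSH23 and 406 to 453 in WTL + JSH23, but by the test on counts 3 rose (Adgre1, Mertk and C5ar1) and 3 fell in both LPS comparisons, and 5 fell and 0 rose in either JSH-23 comparison. The 9 neutrophil markers summed to 364 to 378, 319 to 333, 318 to 344 and 269 to 289.6 TPM in the same order. Of the 6 neutrophil markers tested on counts, 4 rose with LPS and 1 fell, Mmp8, which had the most counts of this list. With LPS under JSH-23, 0 rose and 1 fell. With JSH-23 alone 1 fell, and with JSH-23 under LPS all 6 fell. The part of these cells in the results was not tested.

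**Figure D4:**
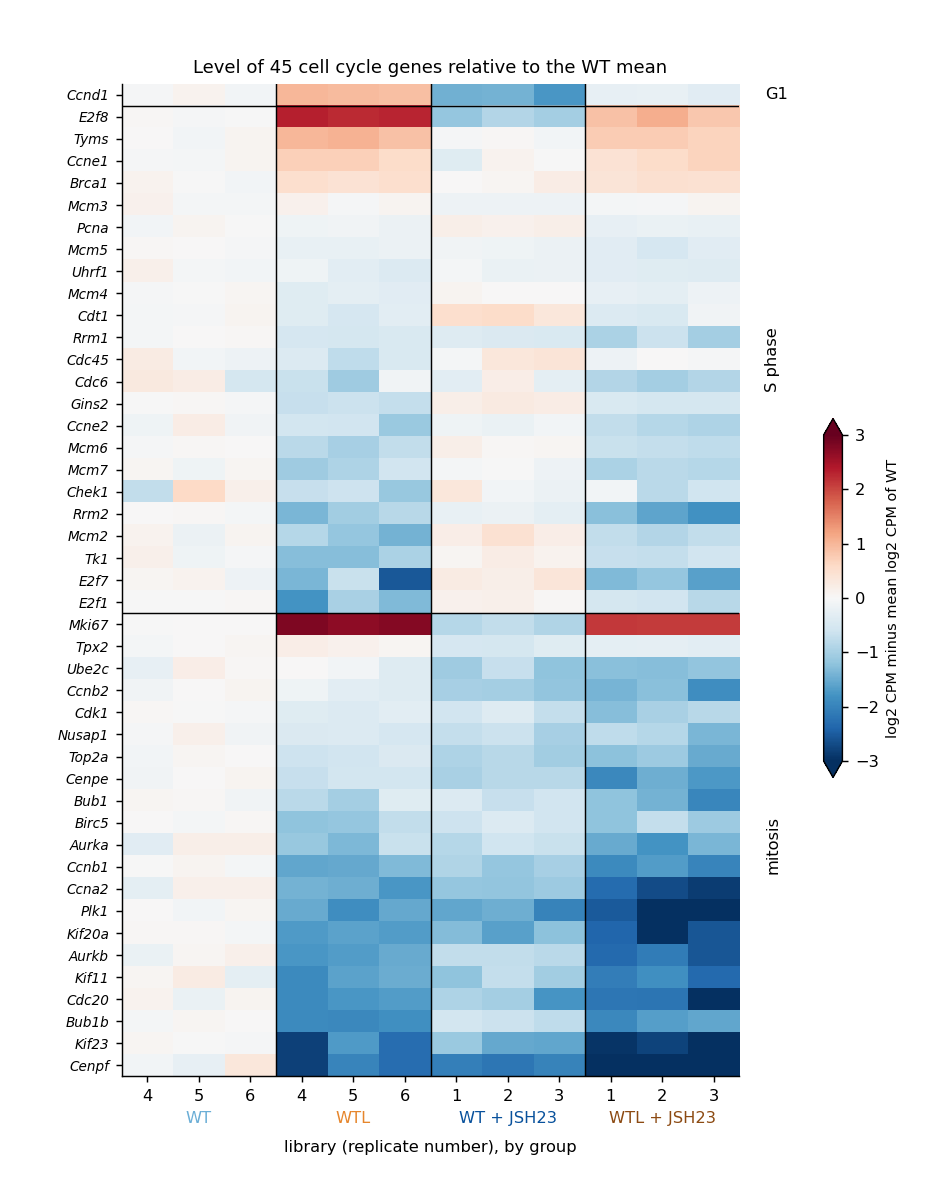
Log2 CPM of 45 members in 12 libraries relative to the WT mean (genes ordered by the change with LPS within each set; the colour scale ends at 3 log2 units on either side and lower or higher values share its end colours). Mki67 and E2f8 stand out as high in both LPS groups, and all mitosis genes are low in the WT + JSH23 libraries.

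The cyclins and E2F factors that open S phase moved in opposite directions under LPS. Ccnd1, the cyclin of CDK4 and CDK6, opens G1. Ccnd1 was at 30.8, 34 and 29.8 CPM in WT and 62.6, 60.7 and 58.4 CPM in WTL. With JSH-23, Ccnd1 was at 11.6, 11.8 and 9.39 CPM in WT + JSH23 and 26.5, 26.8 and 24.8 CPM in WTL + JSH23. All 4 groups were separate, and Ccnd1 was lowest with JSH-23 alone. With LPS it rose at a log2 fold change of 0.94 ± 0.0614 (adjusted p = 1.51e-11) without JSH-23 and 1.25 ± 0.0768 (adjusted p = 8.83e-12) with it, and it fell with JSH-23 at -1.53 ± 0.0735 (adjusted p = 5.05e-13) without LPS and -1.22 ± 0.0643 (adjusted p = 1.39e-12) under LPS. The Ccnd1 locus overlaps LTO1, and its expected counts were not whole numbers in any library, so its values are less certain.

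Ccne1 and Ccne2, the E cyclins of CDK2, parted. Ccne1 was at 6.64, 6.52 and 7.21 CPM in WT and 11.2, 11.2 and 9.99 CPM in WTL. With JSH-23, Ccne1 was at 5.29, 7.34 and 6.77 CPM in WT + JSH23 and 9.21, 9.95 and 10.8 CPM in WTL + JSH23. Ccne1 rose with LPS at a log2 fold change of 0.68 ± 0.102 (adjusted p = 5.93e-06) and 0.63 ± 0.106 (adjusted p = 3.28e-05) without and with JSH-23, with no overlap, and did not pass for JSH-23. Ccne2 was at 3.03, 3.87 and 3.07 CPM in WT and 2.25, 2.23 and 1.52 CPM in WTL. With JSH-23, Ccne2 was at 3.04, 2.89 and 3.13 CPM in WT + JSH23 and 1.98, 1.83 and 1.73 CPM in WTL + JSH23. Ccne2 fell at a log2 fold change of -0.72 ± 0.164 (adjusted p = 0.00062) and -0.70 ± 0.17 (adjusted p = 0.00139), and its JSH-23 comparisons did not pass either. Ccne2, which overlaps Ints8, likewise had no whole count in any library.

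Of the 3 E2F factors, E2f8 is a repressor of E2F targets that is itself one of them. E2f8 was at 18, 17.1 and 17.4 CPM in WT and 88, 82.4 and 85.1 CPM in WTL. With JSH-23, E2f8 was at 7.87, 9.55 and 8.61 CPM in WT + JSH23 and 32.3, 37.2 and 30.5 CPM in WTL + JSH23. The WTL libraries stood highest and those of WT + JSH23 lowest, with no overlap. E2f8 rose with LPS at a log2 fold change of 2.29 ± 0.0643 (adjusted p = 9.08e-18), or 4.87-fold, without JSH-23 and at 1.95 ± 0.0773 (adjusted p = 5.78e-15) with it, and fell with JSH-23 at -1.01 ± 0.0816 (adjusted p = 1.41e-09) without and -1.35 ± 0.0611 (adjusted p = 1.18e-13) with LPS. E2f7, the paralog of E2f8 with the same repressor role, went the other way. E2f7 was at 0.826, 0.854 and 0.724 CPM in WT and 0.31, 0.5 and 0.138 CPM in WTL. With JSH-23, E2f7 was at 0.953, 0.904 and 1.02 CPM in WT + JSH23 and 0.319, 0.358 and 0.259 CPM in WTL + JSH23. It was low in every library and lowest in the LPS groups, where it fell at a log2 fold change of -1.27 ± 0.342 (adjusted p = 0.00269) and -1.60 ± 0.341 (adjusted p = 0.000448). E2f1 is an activator of S phase genes. E2f1 was at 8.81, 8.73 and 9.07 CPM in WT and 2.56, 4.50 and 3.55 CPM in WTL. With JSH-23, E2f1 was at 9.71, 9.91 and 9.12 CPM in WT + JSH23 and 6.17, 5.97 and 4.97 CPM in WTL + JSH23. E2f1 fell with LPS at a log2 fold change of -1.31 ± 0.132 (adjusted p = 1.69e-08) without and -0.74 ± 0.121 (adjusted p = 2.46e-05) with JSH-23. Under LPS it was higher with JSH-23 at a log2 fold change of 0.68 ± 0.144 (adjusted p = 0.000477), with no overlap, whereas the difference without LPS did not pass (log2 fold change 0.11 ± 0.11, adjusted p = 0.458).

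Genes of origin licensing and of the replication fork mostly fell with LPS. Mcm2 to Mcm7 encode the subunits of the replicative helicase. Mcm2 was at 9.30, 7.68 and 9.18 CPM in WT and 4.80, 3.90 and 3.27 CPM in WTL. With JSH-23, Mcm2 was at 10, 11.9 and 10 CPM in WT + JSH23 and 5.24, 4.70 and 5.23 CPM in WTL + JSH23. Mcm2 was lower in both LPS groups without overlap, at a log2 fold change of -1.11 ± 0.123 (adjusted p = 7.26e-08) and -1.07 ± 0.117 (adjusted p = 9.32e-08). With JSH-23 alone it rose at a log2 fold change of 0.29 ± 0.104 (adjusted p = 0.0305), a call that was lost without WT replicate 5 (adjusted p = 0.171) or WT + JSH23 replicate 2 (adjusted p = 0.171). Mcm5 was at 19.1, 18.8 and 18.1 CPM in WT and 15.9, 15.9 and 16.4 CPM in WTL. With JSH-23, Mcm5 was at 17.3, 17.1 and 16.5 CPM in WT + JSH23 and 14.7, 13.2 and 14.7 CPM in WTL + JSH23. The falls of Mcm5 with LPS were small, at a log2 fold change of -0.22 ± 0.0599 (adjusted p = 0.00298) and -0.26 ± 0.0622 (adjusted p = 0.0014). It fell at a log2 fold change of -0.18 ± 0.0638 (adjusted p = 0.0267) with JSH-23 under LPS, which did not pass without WTL replicates 5 or 6 or WTL + JSH23 replicate 2 (adjusted p from 0.051 to 0.146). Mcm3 was at 25.2, 22.2 and 22.2 CPM in WT and 25.2, 22.7 and 24.7 CPM in WTL. With JSH-23, Mcm3 was at 20.7, 20.9 and 20.8 CPM in WT + JSH23 and 22.3, 22.7 and 24.4 CPM in WTL + JSH23. Mcm3 was the only helicase subunit that did not pass in WTL against WT (log2 fold change 0.06 ± 0.0616, adjusted p = 0.442). Mcm3 rose with LPS under JSH-23 at a log2 fold change of 0.15 ± 0.0633 (adjusted p = 0.0496) and fell with JSH-23 alone at -0.16 ± 0.0615 (adjusted p = 0.044). The first call was lost without WT replicates 5 or 6, WTL replicates 4 or 6, WT + JSH23 replicates 1, 2 or 3 or WTL + JSH23 replicates 2 or 3 (adjusted p from 0.0504 to 0.177), and the second without WT replicate 4, WT + JSH23 replicates 1, 2 or 3 or WTL + JSH23 replicate 1 (adjusted p from 0.0601 to 0.275). Mcm4, Mcm6 and Mcm7 fell in both LPS comparisons, with log2 fold changes from -0.86 to -0.26, and did not pass for JSH-23.

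Cdt1 loads the helicase onto origins. Cdt1 was at 6.42, 6.52 and 6.97 CPM in WT and 5.15, 4.70 and 5.34 CPM in WTL. With JSH-23, Cdt1 was at 9.34, 9.69 and 8.41 CPM in WT + JSH23 and 4.96, 4.81 and 6.14 CPM in WTL + JSH23. It rose with JSH-23 alone at a log2 fold change of 0.46 ± 0.0952 (adjusted p = 0.000431) and fell with LPS at -0.39 ± 0.106 (adjusted p = 0.00264) and -0.79 ± 0.102 (adjusted p = 1.09e-06), the last from the raised level. Cdc45 and the GINS subunit Gins2 are parts of the active helicase. Cdc45 was at 2.81, 2.25 and 2.14 CPM in WT and 1.78, 1.40 and 1.75 CPM in WTL. With JSH-23, Cdc45 was at 2.27, 3.00 and 3.10 CPM in WT + JSH23 and 2.16, 2.39 and 2.33 CPM in WTL + JSH23. Cdc45 fell with LPS at a log2 fold change of -0.56 ± 0.181 (adjusted p = 0.0104), not without WT replicate 4 (adjusted p = 0.0683) or WTL replicate 5 (adjusted p = 0.0675). With JSH-23 under LPS it was higher at a log2 fold change of 0.49 ± 0.188 (adjusted p = 0.0373), a call lost without WTL replicate 5 or WTL + JSH23 replicates 2 or 3 (adjusted p from 0.0731 to 0.165). Gins2 was at 26.8, 27.6 and 26.1 CPM in WT and 16.6, 17.3 and 16.3 CPM in WTL. With JSH-23, Gins2 was at 30.4, 32.4 and 31.4 CPM in WT + JSH23 and 19.7, 18.5 and 18.7 CPM in WTL + JSH23. Gins2 fell with LPS at a log2 fold change of -0.68 ± 0.0545 (adjusted p = 4.92e-10) and -0.73 ± 0.0532 (adjusted p = 1.76e-10) and was higher with JSH-23 at 0.23 ± 0.0497 (adjusted p = 0.000852) without LPS and 0.18 ± 0.0583 (adjusted p = 0.0151) under it, the latter lost without WTL + JSH23 replicate 1 (adjusted p = 0.0734). Gins2, which overlaps Gse1, likewise had no whole count in any library. Cdc6, which loads the helicase together with Cdt1, had low counts and fell with LPS under JSH-23 at a log2 fold change of -0.79 ± 0.316 (adjusted p = 0.0399). That call was lost without WT + JSH23 replicate 2 or WTL + JSH23 replicates 1, 2 or 3 (adjusted p from 0.0661 to 0.156), and the change without JSH-23 did not pass (log2 fold change -0.65 ± 0.295, adjusted p = 0.0592) but passed without WT replicate 6 (adjusted p = 0.0174) or WTL replicate 6 (adjusted p = 0.0206).

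Pcna was at 117, 132 and 123 CPM in WT and 113, 115 and 109.8 CPM in WTL. With JSH-23, Pcna was at 141, 135 and 139.6 CPM in WT + JSH23 and 105, 108 and 107 CPM in WTL + JSH23. The WT + JSH23 libraries of this clamp gene were the highest of all, and those of WTL + JSH23 the lowest. Pcna fell with LPS at a log2 fold change of -0.14 ± 0.0429 (adjusted p = 0.00718) without JSH-23 and -0.38 ± 0.043 (adjusted p = 1.83e-07) with it, and rose at 0.16 ± 0.0422 (adjusted p = 0.00498) with JSH-23 alone. The first of these did not pass without WT replicate 5 (adjusted p = 0.071).

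Among genes of nucleotide supply, Tyms makes thymidylate. Tyms was at 12.8, 12.1 and 13.4 CPM in WT and 25.5, 26.3 and 23.3 CPM in WTL. With JSH-23, Tyms was at 12.4, 13 and 12.1 CPM in WT + JSH23 and 21.8, 21.8 and 20.3 CPM in WTL + JSH23. Tyms rose with LPS at a log2 fold change of 0.98 ± 0.0638 (adjusted p = 1.52e-11) and 0.77 ± 0.066 (adjusted p = 2.11e-09), with no overlap between LPS and other libraries, and was lower with JSH-23 under LPS at -0.24 ± 0.0616 (adjusted p = 0.00324). Tk1, the thymidine kinase of S phase, moved in the opposite direction. Tk1 was at 42.7, 35.3 and 37.3 CPM in WT and 15.8, 15.8 and 19.8 CPM in WTL. With JSH-23, Tk1 was at 40, 44.9 and 41.3 CPM in WT + JSH23 and 23.6, 23.5 and 25.6 CPM in WTL + JSH23. It fell with LPS at a log2 fold change of -1.18 ± 0.0818 (adjusted p = 4.36e-11) and -0.80 ± 0.0779 (adjusted p = 1.86e-08) and stood higher with JSH-23 under LPS at 0.51 ± 0.0877 (adjusted p = 5.1e-05). Tk1 and Tyms, which supply the same nucleotide by different routes, thus changed with opposite signs in both LPS comparisons.

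Rrm1 and Rrm2 encode the subunits of ribonucleotide reductase. Rrm2 was at 5.60, 5.63 and 5.31 CPM in WT and 2.13, 2.67 and 3.08 CPM in WTL. With JSH-23, Rrm2 was at 4.70, 4.85 and 4.53 CPM in WT + JSH23 and 2.30, 1.83 and 1.56 CPM in WTL + JSH23. The LPS libraries were lower than all others, at a log2 fold change of -1.08 ± 0.139 (adjusted p = 7e-07) and -1.29 ± 0.151 (adjusted p = 2.7e-07). The fall with JSH-23 under LPS (log2 fold change -0.45 ± 0.168, adjusted p = 0.0325) did not pass without WTL replicates 5 or 6 or WTL + JSH23 replicates 2 or 3 (adjusted p from 0.0819 to 0.14). Rrm1 was at 24.4, 25.9 and 26.3 CPM in WT and 17.9, 17.6 and 18.6 CPM in WTL. With JSH-23, Rrm1 was at 19.4, 18.8 and 18.6 CPM in WT + JSH23 and 13.3, 16.4 and 12.5 CPM in WTL + JSH23. Rrm1 fell in all 4 comparisons, at a log2 fold change of -0.50 ± 0.0707 (adjusted p = 2.19e-06) and -0.43 ± 0.0762 (adjusted p = 5.97e-05) with LPS and at -0.43 ± 0.0688 (adjusted p = 2.79e-05) and -0.36 ± 0.0781 (adjusted p = 0.000674) with JSH-23. Uhrf1, which keeps DNA methylation through replication, fell with LPS at a log2 fold change of -0.28 ± 0.0878 (adjusted p = 0.00841) and -0.22 ± 0.0908 (adjusted p = 0.0455). These calls did not hold without WT replicate 4 (adjusted p = 0.0642) and, under JSH-23, without WT replicate 5, WTL replicate 5, WT + JSH23 replicates 1 or 3 or WTL + JSH23 replicates 1, 2 or 3 (adjusted p from 0.0506 to 0.175). Of the checkpoint and repair genes, Brca1 rose with LPS at a log2 fold change of 0.47 ± 0.0855 (adjusted p = 5.1e-05) and 0.34 ± 0.0861 (adjusted p = 0.00229). Chek1, the kinase of the replication checkpoint, fell at a log2 fold change of -0.87 ± 0.322 (adjusted p = 0.0217) without JSH-23, with overlapping libraries and a call lost without WT replicate 5 (adjusted p = 0.186) or WTL replicate 6 (adjusted p = 0.0768).

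Mki67 (ENSMUSG00000031004.8, chr7:135689784-135716361 on GRCm38, minus strand) was the single mitosis member that rose in WTL against WT. Mki67 was at 85.1, 86.6 and 87.8 CPM in WT and 599.9, 559 and 579.9 CPM in WTL. With JSH-23, Mki67 was at 47.9, 51.7 and 46.4 CPM in WT + JSH23 and 377, 371 and 371 CPM in WTL + JSH23. LPS libraries lay far above the others, and at each LPS state those with JSH-23 lay below those without. Mki67 rose with LPS at a log2 fold change of 2.74 ± 0.042 (adjusted p = 4.89e-22), or 6.70-fold, without JSH-23 and 2.94 ± 0.0438 (adjusted p = 9.31e-22), or 7.66-fold, with it, the largest change of any member in either comparison. Mki67 was lower with JSH-23, at a log2 fold change of -0.83 ± 0.0439 (adjusted p = 2.07e-12) without LPS and -0.64 ± 0.0387 (adjusted p = 1.27e-11) under LPS. Top2a, the topoisomerase that untangles chromosomes and is often used beside Ki-67 as a proliferation marker, did not follow it. Top2a was at 34.8, 38.8 and 37.5 CPM in WT and 24.1, 24.8 and 27.3 CPM in WTL. With JSH-23, Top2a was at 19.5, 20.8 and 18.1 CPM in WT + JSH23 and 15.7, 17.3 and 13 CPM in WTL + JSH23. It fell with LPS at a log2 fold change of -0.55 ± 0.0734 (adjusted p = 1.14e-06) and -0.34 ± 0.0844 (adjusted p = 0.00184), and with JSH-23 at -0.93 ± 0.0743 (adjusted p = 1.31e-09) and -0.72 ± 0.0832 (adjusted p = 2.8e-07) without and with LPS.

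Cdk1 and its cyclins drive entry into mitosis. Cdk1 was at 7.68, 7.48 and 7.35 CPM in WT and 5.85, 5.60 and 5.99 CPM in WTL. With JSH-23, Cdk1 was at 5.07, 5.75 and 4.59 CPM in WT + JSH23 and 3.12, 3.82 and 4.23 CPM in WTL + JSH23. Cdk1 fell at a log2 fold change of -0.37 ± 0.106 (adjusted p = 0.00404) with LPS, -0.55 ± 0.105 (adjusted p = 0.000211) with JSH-23 and -0.65 ± 0.121 (adjusted p = 0.000126) with JSH-23 under LPS, with no overlap between the groups compared, while WTL and WT + JSH23 overlapped. Ccnb1 was at 7.43, 7.94 and 7.24 CPM in WT and 2.56, 2.60 and 2.99 CPM in WTL. With JSH-23, Ccnb1 was at 4.03, 3.36 and 3.78 CPM in WT + JSH23 and 2.02, 2.35 and 1.90 CPM in WTL + JSH23. Ccnb1 fell at a log2 fold change of -1.48 ± 0.118 (adjusted p = 4.22e-10) with LPS and at -1.01 ± 0.109 (adjusted p = 1.26e-07) with JSH-23 alone. From the lower level with JSH-23, LPS lowered it with a log2 fold change of -0.83 ± 0.136 (adjusted p = 2.28e-05). Ccnb1 fell with JSH-23 under LPS at a log2 fold change of -0.37 ± 0.146 (adjusted p = 0.0423), a call lost without WT replicate 4, WTL replicates 5 or 6 or WTL + JSH23 replicates 1 or 3 (adjusted p from 0.0518 to 0.132). Ccnb2 was at 5.44, 5.92 and 6.14 CPM in WT and 5.35, 4.70 and 4.47 CPM in WTL. With JSH-23, Ccnb2 was at 2.92, 2.89 and 2.55 CPM in WT + JSH23 and 2.23, 2.43 and 1.60 CPM in WTL + JSH23. Ccnb2 stood lower with JSH-23, at a log2 fold change of -1.06 ± 0.13 (adjusted p = 8.16e-07) without and -1.20 ± 0.147 (adjusted p = 6.01e-07) with LPS, while WTL against WT did not pass (log2 fold change -0.27 ± 0.123, adjusted p = 0.0624) except without WTL replicate 4 (adjusted p = 0.0388) or WTL + JSH23 replicate 3 (adjusted p = 0.0389). With JSH-23 present it fell with LPS at a log2 fold change of -0.41 ± 0.156 (adjusted p = 0.032), which did not pass without WT + JSH23 replicates 1 or 2 or WTL + JSH23 replicate 3 (adjusted p from 0.0761 to 0.173).

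Plk1 and Aurkb are mitotic kinases. Plk1 was at 5.08, 4.81 and 5.28 CPM in WT and 1.78, 1.40 and 1.75 CPM in WTL. With JSH-23, Plk1 was at 1.72, 1.84 and 1.26 CPM in WT + JSH23 and 0.886, 0.637 and 0.605 CPM in WTL + JSH23. WT stood clear above the other groups, and WTL and WT + JSH23 overlapped. Plk1 fell at a log2 fold change of -1.63 ± 0.165 (adjusted p = 1.93e-08) with LPS, at -1.65 ± 0.161 (adjusted p = 2.84e-08) with JSH-23 and at -1.18 ± 0.228 (adjusted p = 0.000185) with JSH-23 under LPS. Aurkb was at 5.57, 6.69 and 7.11 CPM in WT and 1.90, 2.00 and 2.26 CPM in WTL. With JSH-23, Aurkb was at 3.84, 3.83 and 3.68 CPM in WT + JSH23 and 1.28, 1.51 and 1.08 CPM in WTL + JSH23. Aurkb fell with LPS at a log2 fold change of -1.66 ± 0.139 (adjusted p = 9.82e-10) and -1.55 ± 0.162 (adjusted p = 5.24e-08), and at -0.77 ± 0.123 (adjusted p = 2.84e-05) and -0.66 ± 0.182 (adjusted p = 0.00496) with JSH-23 without and with LPS. Of Ccna2, Aurka, Cdc20 and Ube2c, the first 3 fell in both LPS comparisons, with log2 fold changes from -1.78 to -0.84. Ube2c, the ubiquitin-conjugating enzyme that works with the anaphase-promoting complex, did not pass with LPS, at a log2 fold change of -0.15 ± 0.134 (adjusted p = 0.328) without and -0.25 ± 0.168 (adjusted p = 0.211) with JSH-23. All 4 fell with JSH-23 alone, from -1.19 for Cdc20 to -0.73 for Aurka. Ccna2, which overlaps Exosc9, likewise had no whole count in any library.

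Genes of the spindle checkpoint and kinetochore all fell with LPS. Cenpf, a large kinetochore protein, had the largest fall of the 45 members in each of the 4 comparisons. Cenpf was at 5.05, 4.52 and 6.80 CPM in WT and 0.775, 1.37 and 1.10 CPM in WTL. With JSH-23, Cenpf was at 1.29, 1.19 and 1.33 CPM in WT + JSH23 and 0.567, 0.398 and 0.0864 CPM in WTL + JSH23. It fell at a log2 fold change of -2.31 ± 0.239 (adjusted p = 2.66e-08) with LPS, at -2.09 ± 0.226 (adjusted p = 1.38e-07) with JSH-23 and at -1.57 ± 0.38 (adjusted p = 0.00166) with JSH-23 under LPS, and WTL and WT + JSH23 overlapped. The WTL + JSH23 libraries rest on 2 to 16 counts of Cenpf. Bub1b encodes the checkpoint protein BubR1. Bub1b was at 13.6, 14.6 and 14.1 CPM in WT and 3.72, 3.67 and 3.91 CPM in WTL. With JSH-23, Bub1b was at 9.59, 9.01 and 8.27 CPM in WT + JSH23 and 3.69, 4.50 and 4.80 CPM in WTL + JSH23. Bub1b fell with LPS at a log2 fold change of -1.91 ± 0.0968 (adjusted p = 2.05e-13) without JSH-23 and at -1.06 ± 0.1 (adjusted p = 1.13e-08) with it. It was lower with JSH-23 alone (log2 fold change -0.65 ± 0.0822, adjusted p = 1.16e-06) but did not pass under LPS (log2 fold change 0.19 ± 0.118, adjusted p = 0.186), where it passed as higher without WTL + JSH23 replicate 1 (adjusted p = 0.0464). Bub1, Birc5 and Cenpe fell with LPS in both comparisons, from -1.03 to -0.46, and with JSH-23 alone, from -0.89 to -0.53. The fall of Birc5 with LPS under JSH-23 was lost without WT + JSH23 replicate 2 (adjusted p = 0.0635) or WTL + JSH23 replicate 1 (adjusted p = 0.0898).

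All 7 motor, spindle and chromosome genes fell with JSH-23 alone, whereas with LPS 5 fell and 1, Mki67, rose. Kif23 is a kinesin of the central spindle. Kif23 was at 3.94, 3.76 and 3.69 CPM in WT and 0.542, 1.17 and 0.783 CPM in WTL. With JSH-23, Kif23 was at 1.75, 1.30 and 1.29 CPM in WT + JSH23 and 0.496, 0.557 and 0.475 CPM in WTL + JSH23. Kif23 fell with LPS at a log2 fold change of -2.16 ± 0.214 (adjusted p = 1.4e-08) and -1.51 ± 0.268 (adjusted p = 6.56e-05) and with JSH-23 alone at -1.38 ± 0.191 (adjusted p = 4.25e-06). Tpx2 brings the kinase Aurora A to the spindle. Tpx2 was at 15, 15.6 and 16.1 CPM in WT and 17.9, 17 and 16.3 CPM in WTL. With JSH-23, Tpx2 was at 10.9, 10.8 and 12.1 CPM in WT + JSH23 and 12.8, 12.9 and 12.5 CPM in WTL + JSH23. The change of Tpx2 in WTL against WT did not pass (log2 fold change 0.14 ± 0.0642, adjusted p = 0.07) except without WTL replicate 6 (adjusted p = 0.0476). It rose with LPS under JSH-23 at a log2 fold change of 0.17 ± 0.0703 (adjusted p = 0.0444), which turned with limma on TPM (-0.0067, adjusted p = 0.951) and was lost without WT replicate 5, WTL replicate 5, WT + JSH23 replicates 1 or 2 or WTL + JSH23 replicates 1, 2 or 3 (adjusted p from 0.0513 to 0.139). Tpx2 was lower with JSH-23, at a log2 fold change of -0.46 ± 0.0665 (adjusted p = 7.44e-06) without and -0.42 ± 0.0679 (adjusted p = 2.21e-05) with LPS. Kif11 and Kif20a, further spindle kinesins, fell with LPS from -1.68 to -1.08 in log2 fold change and with JSH-23 alone at a log2 fold change of -1.01 ± 0.146 (adjusted p = 7.7e-06) and -1.36 ± 0.134 (adjusted p = 3.17e-08). Kif20a, which overlaps Cdc23, likewise had no whole count in any library. Nusap1, which binds spindle microtubules, fell with LPS without JSH-23 (log2 fold change -0.45 ± 0.112, adjusted p = 0.00133) and did not pass with it (log2 fold change -0.18 ± 0.129, adjusted p = 0.245). The difference between these changes did not pass (log2 difference 0.27 ± 0.172, adjusted p = 0.309) except without WTL + JSH23 replicate 3 (adjusted p = 0.0438).

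**Figure D5:**
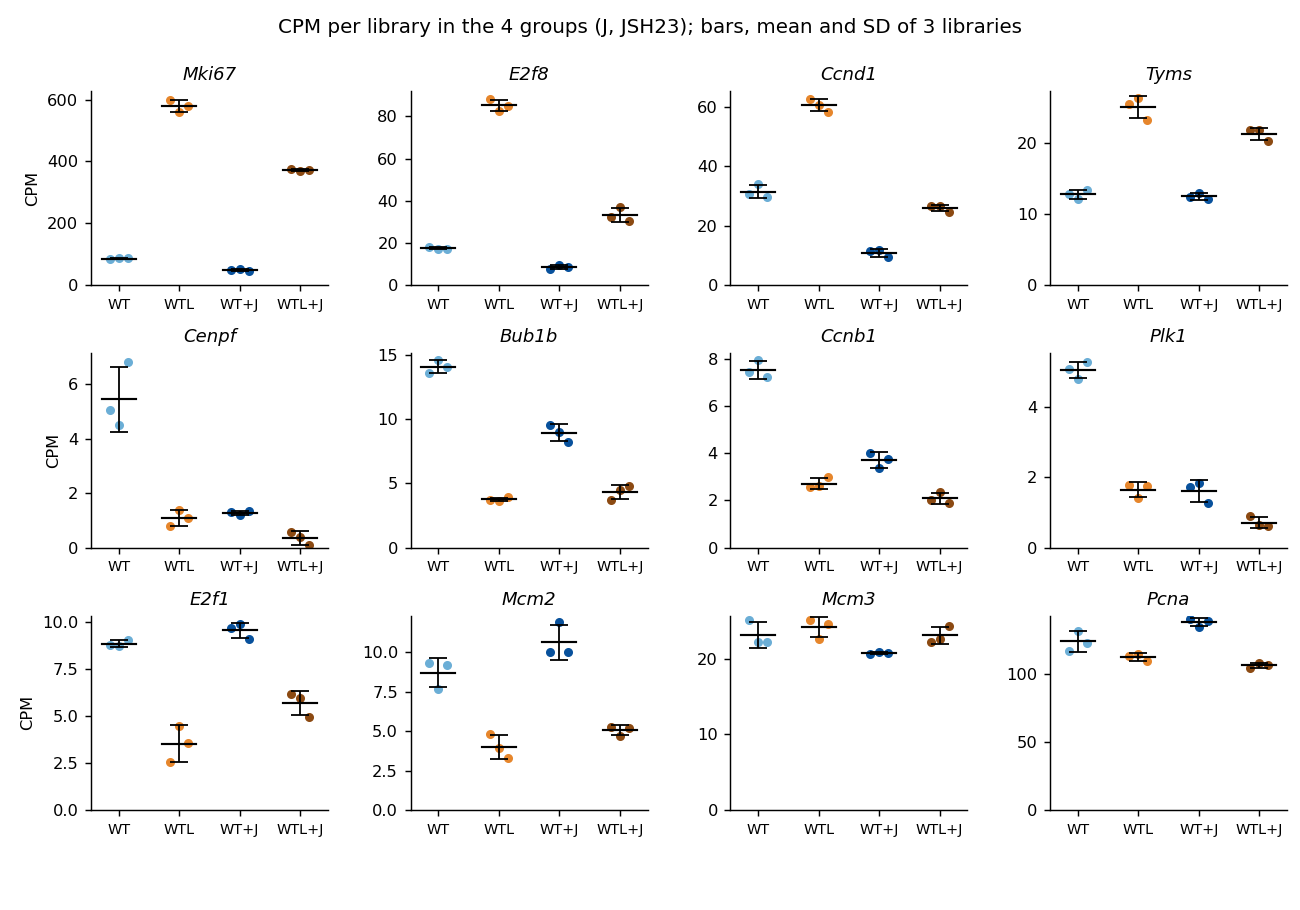
CPM of 12 members in each library of the 4 groups (points), with the mean and SD of 3 libraries; vertical axes start at 0. Mki67, E2f8, Ccnd1 and Tyms are highest in WTL, Cenpf, Bub1b, Ccnb1 and Plk1 are highest in WT, and Pcna is highest in WT + JSH23 (135.1 to 140.8 CPM).

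Whether the LPS change itself differed with JSH-23 was tested by the interaction, which sets the change with LPS under JSH-23 against the change without JSH-23 (the first minus the second, in log2 units). It passed for 8 of 45 members, 6 above 0 and 2 below, against 9.54% of all genes above and 8.44% below, and for 0 with a difference of more than 2-fold (0.933% of all genes above and 0.404% below). Bub1b had the largest difference, 0.85 ± 0.144 (adjusted p = 0.000279), while Pcna had -0.24 ± 0.0608 (adjusted p = 0.00896), and both passed in all 12 fits that left out 1 library. A difference above 0 means a smaller fall in Bub1b, and one below 0 a larger fall in Pcna. Ccnb1 (log2 difference 0.65 ± 0.184, adjusted p = 0.018) did not pass without WTL + JSH23 replicate 2 (adjusted p = 0.0629). Tk1 (log2 difference 0.38 ± 0.114, adjusted p = 0.0234) did not pass without WT replicate 4, WTL replicates 4 or 5 or WT + JSH23 replicate 1 (adjusted p from 0.059 to 0.0912). E2f1 (log2 difference 0.57 ± 0.182, adjusted p = 0.0342) did not pass without WT replicates 4, 5 or 6, WTL replicates 4 or 6, WT + JSH23 replicates 1 or 3 or WTL + JSH23 replicates 1 or 2 (adjusted p from 0.0515 to 0.12). For Mki67 the difference, a larger rise with JSH-23, was 0.19 ± 0.0584 (adjusted p = 0.0258), which did not pass without WT replicate 6, WTL replicate 5, WT + JSH23 replicates 1 or 3 or WTL + JSH23 replicate 1 (adjusted p from 0.0637 to 0.0885). For Ccnd1 the difference was 0.31 ± 0.0988 (adjusted p = 0.0338), lost without WT replicate 5, WTL replicates 5 or 6, WT + JSH23 replicate 3 or WTL + JSH23 replicates 1 or 2 (adjusted p from 0.0628 to 0.135). For E2f8, which rose less with JSH-23, the difference was -0.34 ± 0.103 (adjusted p = 0.0271) and did not pass without WT replicates 5 or 6, WTL replicate 4, WT + JSH23 replicates 2 or 3 or WTL + JSH23 replicate 1 (adjusted p from 0.0505 to 0.104). The count above 0 was 3 without WTL replicate 5, WT + JSH23 replicates 1 or 3, or WTL + JSH23 replicates 1 or 2, and 8 without WTL + JSH23 replicate 3. The count below 0 was 1 without WT replicates 5 or 6, WTL replicate 4, WT + JSH23 replicates 2 or 3 or WTL + JSH23 replicate 1, and 3 without WTL + JSH23 replicate 3.

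Genes of the same pathways outside the 45 members were taken from lists of 50 other replication and 50 other mitosis genes. Like the members, these lists were chosen with earlier results of these data known, so they are not an independent check. With LPS, 32 of the replication genes fell and 8 rose (median -0.53), and 38 of the mitosis genes fell and 7 rose (median -1.14), against 34.7% of all genes lower and 31.0% higher. With JSH-23 present, 28 and 38 fell with LPS and 4 and 3 rose, in the same order, against 27.1% and 27.4% of all genes. With JSH-23 alone, 7 replication genes fell, 6 rose and 37 did not pass (median -0.02), whereas 36 mitosis genes fell, 4 rose and 10 did not pass (median -0.54), against 22.1% of all genes lower and 18.8% higher. Under LPS, 7 replication genes were lower and 12 higher with JSH-23, and 22 mitosis genes were lower and 5 higher. The shares of all genes were 24.2% lower and 24.5% higher.

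A few of these genes rose with LPS as Mki67 did. Mad2l1, a spindle checkpoint gene, was at 16.6, 16.5 and 16.6 CPM in WT and 63.6, 60.3 and 59.2 CPM in WTL, a rise with a log2 fold change of 1.88 ± 0.0595 (adjusted p = 6.2e-17), and rose at 1.81 ± 0.0625 (adjusted p = 5.73e-16) under JSH-23. Mybl2, which encodes the B-MYB partner of CHR-binding complexes, rose at a log2 fold change of 1.54 ± 0.117 (adjusted p = 2.14e-10) and 1.05 ± 0.12 (adjusted p = 1.92e-07). Among the largest falls with LPS, Aspm, a spindle pole gene, fell at a log2 fold change of -3.16 ± 0.266 (adjusted p = 1.03e-09) and Dtl, which takes part in the destruction of Cdt1, at -2.79 ± 0.32 (adjusted p = 1.31e-07). Under JSH-23, Cdc25b, a phosphatase that activates CDK1, and Clspn, a partner of Chek1, fell with LPS at a log2 fold change of -2.25 ± 0.134 (adjusted p = 5.71e-12) and -2.09 ± 0.215 (adjusted p = 4.08e-08). With JSH-23 alone, Cdc7, the kinase that fires origins, rose at a log2 fold change of 1.11 ± 0.0983 (adjusted p = 6.45e-09), and Aspm, Anln and Troap fell at -1.86 ± 0.22 (adjusted p = 4.9e-07), -1.29 ± 0.126 (adjusted p = 3.06e-08) and -1.24 ± 0.279 (adjusted p = 0.00104). Under LPS, Ccnf was higher with JSH-23 at a log2 fold change of 1.27 ± 0.197 (adjusted p = 1.41e-05), and Kif4 and Timeless were lower at -1.52 ± 0.119 (adjusted p = 7.04e-10) and -1.35 ± 0.0954 (adjusted p = 1.35e-10).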

How the data were processed

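Bulk RNA-seq of 12 libraries in 4 groups of 3 was used, with groups taken from the sample titles. The authors trimmed reads with Trim Galore, aligned them to mm10 with STAR (2.6.0c in the submitters' processing notes) and quantified genes with RSEM against a GENCODE annotation whose release is not given in the sources used here. The expected counts deposited for each gene are read pairs, which RSEM shares between genes that fit them equally. The deposited TPM values were computed by the authors from these counts and effective transcript lengths. Labels and methods name different RNA selection kits.

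Expected counts were rounded, filtered with filterByExpr and scaled by TMM in edgeR 4.0.16 (R 4.3.3). The quasi-likelihood F-test was fitted to all 12 libraries with 1 mean per group (8 residual degrees of freedom), and Benjamini-Hochberg adjustment covered 14357 genes. The step was tested on simulated data. DESeq2, which the study used, was an alternative (version 1.42.0) together with other scalings, filters, limma 3.58.1 on log2(TPM + 1), a replicate block and leaving out each library. The SE is the absolute log2 fold change divided by the square root of F. CPM values use TMM-scaled library sizes. Since the labels do not tie libraries to separate animals, p values measure the spread between these libraries. Members and lists were chosen with earlier results of these data known. Values per library are given for 14 fixed members and, for each comparison, up to 3 members per set with the largest rise and fall that passed. From the other lists Cdkn1a, Cdkn1b, Myc, Ccnd2 and Ccnd3 and up to 3 rises and falls per comparison are named (more than 2-fold, mean of at least 1 CPM). Gene identifiers were joined to symbols through GENCODE on GRCm38 (55154 of 55335 without the version suffix). For 12 members a count was not whole in some library, and 12 members lie over a second coding gene.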

Additional observations from a re-analysis of the deposited data

Results flagged for a closer look

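By the interaction test of edgeR, the change with LPS differed with the presence of JSH-23 for 8 of 45 members, 6 above 0 and 2 below. This was near the shares of all genes, 9.54% above and 8.44% below. It also passed for 11 named genes of the other lists. Of these, Aspm, Ccnf and Sgo1 were named for the size of this difference, and Foxm1 was chosen after its values were seen. Their number is therefore no result. Over the full lists it passed for 10 above 0 and 8 below of the 100 other replication and mitosis genes. It passed for 1 and 1 of the 10 CDK inhibitors and pocket proteins and 2 and 2 of the 21 other G1 regulators. Each value is the log2 fold change with LPS under JSH-23 less that without JSH-23. Among the members they were 0.85 for Bub1b, 0.65 for Ccnb1, 0.57 for E2f1, 0.38 for Tk1, 0.31 for Ccnd1, 0.19 for Mki67, -0.24 for Pcna and -0.34 for E2f8, with adjusted p from 0.000279 (Bub1b) to 0.0342 (E2f1). Of these, only Bub1b and Pcna passed in every fit that left out 1 library. Among the other lists the falls with LPS were smaller with JSH-23 for Aspm (2.02, adjusted p = 0.00308), Ccnf (1.63, adjusted p = 4.72e-05), Sgo1 (1.36, adjusted p = 0.0409), Foxm1 (1.30, adjusted p = 0.000572) and E2f2 (0.90, adjusted p = 0.0109), and the rises were smaller for Cdkn1a (-0.46, adjusted p = 1.13e-06) and Ccnd2 (-0.48, adjusted p = 1.99e-05). The difference was 0.29 for Cdkn2b (adjusted p = 0.0393), -0.56 for Kif4 (adjusted p = 0.0276), -0.39 for Timeless (adjusted p = 0.0322) and -0.46 for Cdc7 (adjusted p = 0.0494).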

How the results depend on the processing

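With more than 2-fold required, 2 members rose and 17 fell in WTL against WT, 3 and 12 in WTL + JSH23 against WT + JSH23, 0 and 9 in WTL + JSH23 against WTL, 0 and 11 in WT + JSH23 against WT, and 0 and 0 in the interaction. In WTL against WT the S phase median was -0.52 with the DESeq2 test and with DESeq2 size factors in edgeR, -0.64 with upper quartile scaling and -0.46 at a mean of at least 1 CPM, where 42 of 45 members were tested, and the mitosis median was -1.14 with upper quartile scaling. Under JSH-23 the S phase median was -0.58 with upper quartile scaling, -0.41 at a mean of at least 1 CPM and -0.42 with limma on log2(TPM + 1), the mitosis median -0.92 and -0.59 with upper quartile scaling and limma, and limma gave 5 rises. For JSH-23 under LPS, DESeq2 gave 2 rises, limma 12 falls, and the S phase and mitosis medians were 0.059 and -0.31 with limma. For JSH-23 alone, limma gave 2 rises and medians of 0.031 and -0.71, and the S phase median was -0.0026 with the stricter filter. In the interaction the S phase median was -0.011 and -0.012 with DESeq2 and its size factors and 0.084 with limma, where the mitosis median was 0.44 and the count below 0 was 0. S phase medians near 0 thus changed sign with limma on TPM for JSH-23 and with DESeq2 size factors in the interaction. Upper quartile scaling moved the median of all genes to -0.13 with LPS and -0.10 with LPS under JSH-23, and limma on TPM to -0.30, -0.18, 0.12 (JSH-23 under LPS) and 0.12 (interaction). The split of all genes called higher and lower was 3935 and 3893 with LPS under JSH-23, but 3085 and 5090 with upper quartile scaling and 1794 and 5484 with limma. It was 4451 and 4986 with LPS, 3516 and 3478 for JSH-23 under LPS and 1370 and 1212 in the interaction, but 1713 and 7006, 4088 and 1872, and 1440 and 345 with limma, and the interaction gave 1000 and 1436 with DESeq2. The cause was not tested.

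When each library was left out in turn, rises and falls ranged over 6 to 7 and 32 to 35 with LPS, 6 to 8 and 30 to 33 with LPS under JSH-23, 3 to 5 and 18 to 22 for JSH-23 under LPS, 3 to 5 and 24 to 25 for JSH-23 alone, and 3 to 8 and 1 to 3 in the interaction. S phase medians ranged from -0.63 to -0.44, -0.75 to -0.41, -0.066 to -0.032, -0.03 to 0.025 and -0.024 to 0.032 in the same order, and mitosis medians from -1.25 to -0.97, -0.94 to -0.8, -0.78 to -0.62, -0.97 to -0.87 and 0.14 to 0.29. In these fits 15 pairs of a member and a comparison that did not pass with all libraries passed in at least 1 fit. Beside those given above they were Aurka (adjusted p from 0.0274 to 0.0466 without WT replicate 4, WTL replicate 5 or WTL + JSH23 replicate 3), Mcm2 (0.011 to 0.0452 without WT replicate 5, WTL replicate 4, WT + JSH23 replicate 2 or WTL + JSH23 replicate 2), Kif23 (0.0114 and 0.0474 without WTL replicate 4 and WT + JSH23 replicate 1), Mcm6 (0.0383 without WTL replicate 6) and Cdc20 (0.0497 without WT + JSH23 replicate 3) for JSH-23 under LPS, Tk1 for JSH-23 alone (0.032 without WT replicate 4), and the interactions of Kif11 (0.0431 and 0.0486 without WT replicate 6 and WT + JSH23 replicate 2), Birc5 (0.0274 without WTL replicate 6), Cdt1 and Top2a (0.0159 and 0.0316 without WTL + JSH23 replicate 3).

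With the replicate number as a block, possible only within the LPS comparisons because libraries with and without JSH-23 share no number, 6 members rose and 34 fell with LPS, 7 rose and 32 fell with LPS under JSH-23, and the interaction passed for 6 above and 2 below 0. Whether the numbers pair the libraries is not given in the labels. Deviations from the group means correlated weakly, at 0.014 to 0.061, between libraries of the same number. Between libraries of different numbers they correlated at -0.056 to 0.035. The alternatives were also counted for named genes, but only where the gene passed in the main fit. A gained call could not appear there, and many of these genes were named for large changes that passed. High agreement was therefore partly built in. Of these values, 2211 kept direction and call, 108 lost the call and 1 turned, Tpx2 with LPS under JSH-23 (-0.0067, adjusted p = 0.951 with limma on TPM). Precision is limited by 3 libraries per group and, for Cdc6, E2f7, Chek1, Cenpf and Kif23, by low counts.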

Other observations

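Of 10 CDK inhibitors and pocket proteins, 2 rose and 5 fell with LPS, against 31.0% of all genes higher and 34.7% lower. Cdkn1a, which encodes the CDK inhibitor p21, was at 555, 559 and 567 CPM in WT and 2118, 2174 and 2096 CPM in WTL, and at 418, 412 and 425 and 1119.7, 1177 and 1162 CPM in the groups with JSH-23. All 4 groups were separate, and the gene rose at a log2 fold change of 1.93 ± 0.0346 (adjusted p = 6.18e-21) without and 1.46 ± 0.0344 (adjusted p = 8.99e-19) with JSH-23. Cdkn1b, which encodes p27, rose at a log2 fold change of 0.75 ± 0.0501 (adjusted p = 2.43e-11) and 0.59 ± 0.0523 (adjusted p = 4.26e-09). With JSH-23 alone, Cdkn2b rose at a log2 fold change of 0.86 ± 0.0648 (adjusted p = 4.91e-10) and stayed higher under LPS at 1.15 ± 0.0681 (adjusted p = 8.45e-12). Cdkn1c rose at a log2 fold change of 2.81 ± 0.374 (adjusted p = 2.5e-06) from values near 0 (0.122, 0.313 and 0.207 CPM in WT and 1.57, 1.05 and 2.01 CPM in WT + JSH23).

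Of 21 other G1 regulators, 9 rose and 10 fell with LPS, against the same shares of all genes. Ccnd2, the D cyclin with by far the most counts, was at 394, 381 and 375 CPM in WT, 1139.5, 1079 and 1017 in WTL, 177, 196 and 181 in WT + JSH23 and 366, 384 and 369 in WTL + JSH23. It rose with LPS at a log2 fold change of 1.49 ± 0.045 (adjusted p = 2.81e-17) and 1.01 ± 0.0457 (adjusted p = 5.13e-14) and was lower with JSH-23 at -1.05 ± 0.0456 (adjusted p = 8.99e-14) and -1.53 ± 0.0452 (adjusted p = 3.39e-16), as Ccnd1 was. Ccnd3 fell in all 4 comparisons, at a log2 fold change of -0.36 ± 0.051 (adjusted p = 2.24e-06) and -0.34 ± 0.0547 (adjusted p = 1.88e-05) with LPS and -0.44 ± 0.0505 (adjusted p = 3.52e-07) and -0.42 ± 0.0552 (adjusted p = 1.97e-06) with JSH-23. Myc fell with LPS at a log2 fold change of -1.01 ± 0.147 (adjusted p = 3.57e-06) and -0.66 ± 0.149 (adjusted p = 0.000743), and its JSH-23 comparisons did not pass. E2f2, an activator like E2f1, was at 10.7, 11 and 9.35 CPM in WT and 0.62, 1.23 and 0.829 CPM in WTL, a fall with a log2 fold change of -3.50 ± 0.154 (adjusted p = 1.91e-14), and fell at -2.60 ± 0.133 (adjusted p = 4.16e-13) with JSH-23 present. E2f6, a repressor, rose with JSH-23 under LPS at a log2 fold change of 1.30 ± 0.093 (adjusted p = 1.6e-10). Without LPS E2f6 was also higher with JSH-23, at 19.7, 16.8 and 19.1 CPM in WT + JSH23 against 8.96, 9.87 and 9.76 CPM in WT. Foxm1, chosen here after its values were seen because it encodes a main activator of mitosis genes, fell with LPS at a log2 fold change of -1.85 ± 0.164 (adjusted p = 2.61e-09) without JSH-23 and -0.55 ± 0.163 (adjusted p = 0.00688) with it, and the difference passed (log2 difference 1.30 ± 0.236, adjusted p = 0.000572).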
